A study of Mus musculus with 4 samples.

Results

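The 9 genes described here carry or mark sodium chloride reabsorption between the thick ascending limb and the collecting duct of the kidney: Slc12a1, Umod, Kcnj1, Slc12a3, Pvalb, Trpm6, Scnn1a, Scnn1b and Scnn1g. They were taken by name, as the rows whose Ensembl identifier belongs to these symbols, and make up 9 of the 55401 gene rows in each count table. RNA-seq was performed on kidney and heart of mice with cecal ligation puncture (CLP), an operation that lets gut bacteria into the abdomen and is used as a model of sepsis. The groups were, with 1 library in each, CLP kidney, CLP + MLT kidney, CLP heart and CLP + MLT heart. In the kidney study, 8-week-old C57BL/6 mice of the CLP + MLT group drank water with melatonin (MLT) at 25 μg/ml for 14 days, and kidneys were taken 24 h after CLP. The CLP group had the same operation, so both groups are septic, and no sham library was analysed here. The sources used here give no dose or time for the hearts. Nor is it stated if each library was made from 1 mouse or a pool, if heart and kidney came from the same mice, and what the 4 in the library name CLP+MLT4 stands for.

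The thick ascending limb takes up sodium, potassium and chloride from the tubule fluid while it holds back water, which makes the medulla salty and allows urine to be concentrated. The distal convoluted tubule then takes up sodium with chloride and sets magnesium loss, and the connecting tubule and collecting duct take up sodium through the epithelial sodium channel ENaC under the control of aldosterone. Loop diuretics, thiazides and amiloride block these steps in turn.

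The regions before the transcription starts of 6 of these genes are printed here because the genes behaved differently in kidney although they act in neighbouring segments or, for Scnn1b and Scnn1g, encode subunits of the same channel. Each line gives the 250 bases before the RefSeq start on the gene's own strand, 5′ to 3′, from RefSeq sequence of GRCm38.p6 (mm10), and capitals mark matches to the motifs searched. The windows lie at chr2:125152350-125152599 (plus strand) for Slc12a1, chr7:119479263-119479512 (minus strand) for Umod, chr8:94328958-94329207 (plus strand) for Slc12a3, chr15:78206401-78206650 (minus strand) for Pvalb, chr7:121864788-121865037 (plus strand) for Scnn1b and chr7:121734229-121734478 (plus strand) for Scnn1g.
Slc12a1: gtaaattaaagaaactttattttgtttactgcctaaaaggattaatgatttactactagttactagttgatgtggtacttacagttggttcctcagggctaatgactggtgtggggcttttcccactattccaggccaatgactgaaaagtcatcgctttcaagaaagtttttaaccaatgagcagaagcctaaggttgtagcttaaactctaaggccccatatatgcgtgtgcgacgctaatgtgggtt
Umod: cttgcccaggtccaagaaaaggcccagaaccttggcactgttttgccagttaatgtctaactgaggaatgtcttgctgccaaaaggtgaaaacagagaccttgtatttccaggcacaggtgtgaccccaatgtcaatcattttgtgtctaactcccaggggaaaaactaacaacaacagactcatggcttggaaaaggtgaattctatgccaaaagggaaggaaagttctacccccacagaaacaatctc
Slc12a3: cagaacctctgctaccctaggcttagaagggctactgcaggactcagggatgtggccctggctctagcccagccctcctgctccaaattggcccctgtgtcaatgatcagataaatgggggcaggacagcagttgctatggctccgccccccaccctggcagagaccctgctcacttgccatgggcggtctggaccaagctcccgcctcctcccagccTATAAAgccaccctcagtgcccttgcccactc
Pvalb: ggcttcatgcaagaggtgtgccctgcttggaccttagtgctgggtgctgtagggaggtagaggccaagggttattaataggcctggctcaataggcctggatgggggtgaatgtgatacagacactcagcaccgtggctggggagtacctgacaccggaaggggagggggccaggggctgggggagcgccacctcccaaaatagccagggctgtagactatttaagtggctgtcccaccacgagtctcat
Scnn1b: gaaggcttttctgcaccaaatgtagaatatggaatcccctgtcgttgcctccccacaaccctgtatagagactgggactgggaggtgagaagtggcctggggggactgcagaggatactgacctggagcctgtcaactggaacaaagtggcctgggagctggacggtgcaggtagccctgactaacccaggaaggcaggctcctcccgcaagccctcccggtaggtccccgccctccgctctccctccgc
Scnn1g: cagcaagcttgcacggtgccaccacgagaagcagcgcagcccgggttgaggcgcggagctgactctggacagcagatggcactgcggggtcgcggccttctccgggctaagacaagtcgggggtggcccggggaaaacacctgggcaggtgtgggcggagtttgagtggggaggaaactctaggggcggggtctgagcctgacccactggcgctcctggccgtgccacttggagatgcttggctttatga
Of the 9 genes, 8 had an entry among 32851 RefSeq promoters. Windows of 300 bases, 250 before and 50 after the start, were searched on both strands for an E-box (CACGTG) and a TATA box (TATAAA). The TATA box matched only before Slc12a3, 32 bases from the start, against 13.6% of all promoters. The E-box, present in 7.15% of promoters, matched in none of the 8. Base composition also differed. G and C made up 42.7% for Slc12a1, 43.7% for Kcnj1, 47.3% for Umod, 53.0% for Trpm6 and 58.3% for Pvalb. The share was 60.3% for Slc12a3, 61.7% for Scnn1b and 64.7% for Scnn1g, with a median of 52.7% over all promoters. A relation of base composition to the kidney ratios was not tested. A match is a stretch of letters and was not tested as a binding site.

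The libraries held between 15883057 and 22927905 reads counted on genes, the most in CLP kidney and 16474248 in CLP + MLT kidney. Mitochondrial genes took 14.8% of the counts in CLP kidney and 24.2% in CLP + MLT kidney, and 31.6% and 36.0% in the hearts. Summed cardiomyocyte markers, such as Myh6 and Tnnt2, stood at 26560 and 18735 CPM (counts scaled to a common normalised library size) in the hearts and at 8.40 and 12.7 in the kidneys, so each library matched its labelled tissue. Markers of kidney tubules were nevertheless detected in both hearts, as described with the heart values. With 1 library per group the variation among mice is unknown, so no test was made. A gene was counted as higher or lower in CLP + MLT when it differed at least 1.5-fold after TMM normalization. Intervals are 95% exact intervals of the counts, and they cover counting error only. PCR copies of a molecule are not independent, so the intervals can be too narrow even for that error. In whole tissue, fewer cells of a type and less RNA per cell cannot be told apart.

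In kidney, 3 of the 9 genes were at least 1.5-fold higher in the CLP + MLT library: Pvalb, Slc12a1 and Trpm6. None of the 9 was at least 1.5-fold lower. Among the 16932 genes tested in kidney, 11.0% were higher by this rule and 11.6% lower. The whole counting interval lay past 1.5-fold for the same 3 genes, against 3.57% of all kidney genes above and 3.40% below. The median log2 ratio of the 9 genes was 0.14, against 0.00 for all genes tested, and the range was -0.24 for Umod to 1.89 for Pvalb. The 3 genes that were higher do different work: Slc12a1 carries salt in the thick limb, whereas Pvalb and Trpm6 belong to the distal convoluted tubule. The sodium carrier of that same segment, Slc12a3, had a ratio near 1.

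**Figure D1:**
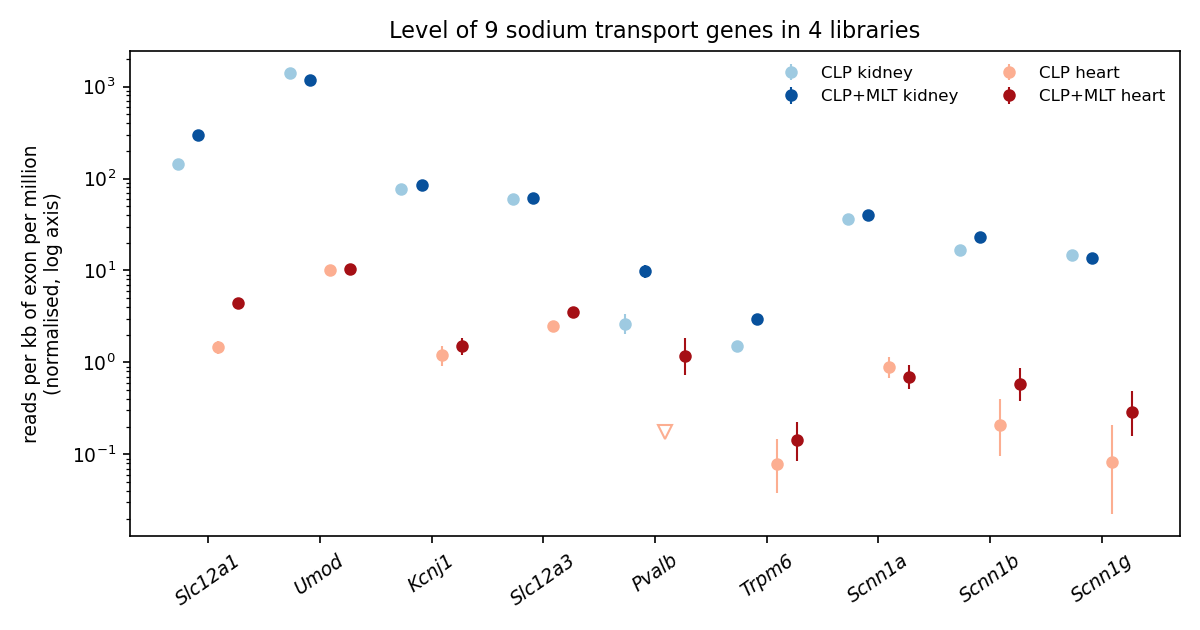
RPKM, the normalised CPM per kilobase of exon (log axis), for the 9 genes in each of the 4 libraries, with 95% counting intervals as bars and, for Pvalb at 0 counts in CLP heart, an open triangle at the level of 3 counts. Umod was the most abundant in both kidneys, at 1401 and 1184, and Slc12a1 stood at 143 and 300.2. The heart values lay below the kidney values for every gene. The nearest was Pvalb, at 1.19 in CLP + MLT heart and 2.62 in CLP kidney.

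Levels between genes were compared as RPKM, the CPM per kilobase of annotated exon, so that long genes do not count more. The exon length is the union of all annotated exons, which lowers the value of genes with long rare exons. On this scale Umod led in CLP kidney at 1401, followed by Slc12a1 at 143, Kcnj1 at 77.2, Slc12a3 at 59.4, Scnn1a at 36.0, Scnn1b at 16.6, Scnn1g at 14.8, Pvalb at 2.62 and Trpm6 at 1.51. In CLP + MLT kidney the order was the same, with values of 1184, 300.2, 85.2, 61.1, 39.8, 22.9, 13.8, 9.80 and 2.95. Only Scnn1b and Scnn1g in CLP kidney had counting intervals that overlapped among neighbours in this order. Slc12a1 moved from rank 304 to rank 148 among all genes of the kidney by level per kilobase, and Pvalb from rank 9970 to rank 4467, while Umod went from rank 31 to rank 34.

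Slc12a1 (ENSMUSG00000027202.12, chr2:125152505-125230002, plus strand) encodes NKCC2, the cotransporter of sodium, potassium and chloride on the luminal side of the thick ascending limb and the target of loop diuretics. It had 20190 counts in CLP kidney, 26639 in CLP + MLT kidney, 137 in CLP heart and 411 in CLP + MLT heart. Although the CLP + MLT kidney library was the smaller, it held more Slc12a1 reads. After normalization the kidney level went from 823 to 1730 CPM, a ratio of 2.1 and a log2 ratio of 1.07 (interval 1.05 to 1.10). It was 1.07 also when mitochondrial and haemoglobin genes were left out, and 0.88 with library size only. Only 3.51% of the genes tested in kidney had a higher log2 ratio. Among the 3526 kidney genes that averaged 1000 counts or more, where counting error is small, 1.73% were at least 2-fold higher.

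Umod (ENSMUSG00000030963.6, chr7:119462711-119479282, minus strand) encodes uromodulin, which is made by the thick limb and is the most abundant protein of normal urine. It had 94985 counts in CLP kidney, 50359 in CLP + MLT kidney, 459 in CLP heart and 468 in CLP + MLT heart. In contrast to Slc12a1, Umod was slightly lower in the CLP + MLT kidney, with a log2 ratio of -0.24 (-0.26 to -0.23), or 0.845 of the CLP level. An antisense gene, Gm44588, lies on the opposite strand and shares 539 of its 545 exon bases with Umod exons. It had 46676 counts in CLP kidney and 29229 in CLP + MLT kidney, equal to 49.1% and 58.0% of the Umod reads. The library kit does not mark strand and the sources used here do not give the strand setting of the counting, so reads of the pair cannot be told apart. With the reads of both genes added together, the log2 ratio was -0.16 (-0.17 to -0.15), again below 0.

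Kcnj1 (ENSMUSG00000041248.9, chr9:32372493-32399197, plus strand) encodes the potassium channel ROMK, which returns potassium to the lumen of the thick limb and so keeps NKCC2 supplied, and which also secretes potassium further along. It had 6310 counts in CLP kidney, 4371 in CLP + MLT kidney, 65 in CLP heart and 81 in CLP + MLT heart. The kidney levels were close, with a log2 ratio of 0.14 (0.09 to 0.20) under TMM normalization and -0.05 when only the library size was used. The 3 thick limb genes thus had ratios of 2.1, 0.845 and 1.10 in the same pair of kidneys.

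The ratio of one gene to another within a library does not depend on the normalization. Umod stood at 9.81 times the level of Slc12a1 per kilobase in CLP kidney and at 3.94 times in CLP + MLT kidney, a 2.49-fold difference, or -1.32 on the log2 scale (-1.35 to -1.28). With the Gm44588 reads added to Umod the difference was -1.23. The ratio of Kcnj1 to Slc12a1 went from 0.540 to 0.284 (log2 difference -0.93, -0.99 to -0.87), and that of Slc12a3 to Slc12a1 from 0.416 to 0.203 (-1.03, -1.08 to -0.99). Slc12a1 therefore differed relative to both other thick limb genes and to the cotransporter of the next segment.

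**Figure D2:**
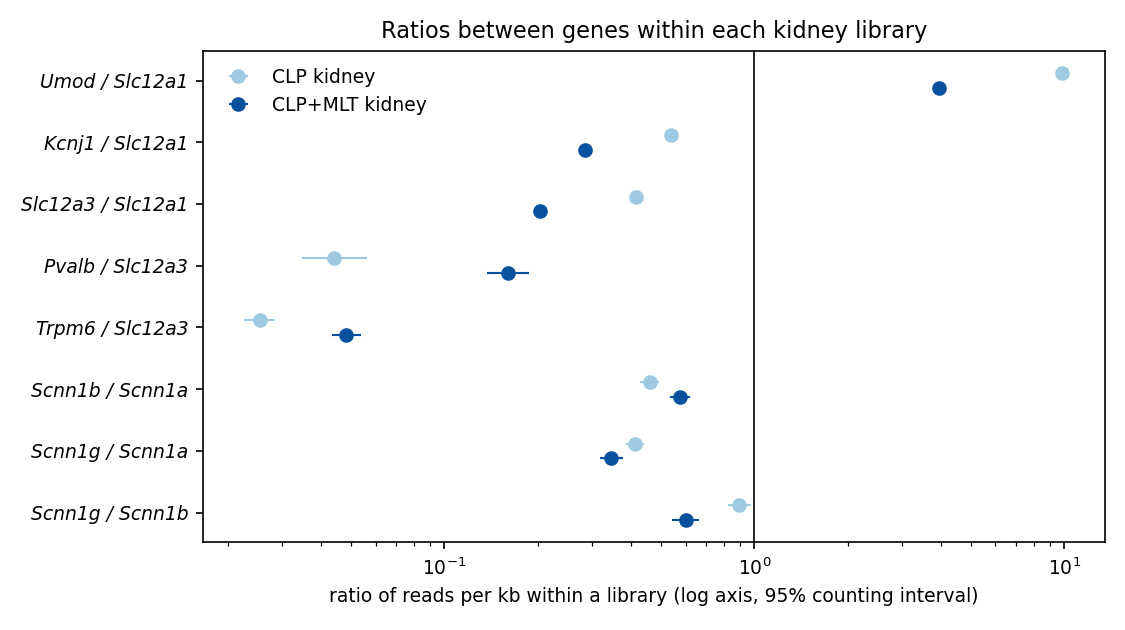
Ratios of reads per kilobase between 8 pairs of the genes within each kidney library (log axis), with 95% counting intervals as bars. Umod to Slc12a1 went from 9.81 in CLP to 3.94 in CLP + MLT, Pvalb to Slc12a3 from 0.0442 to 0.160, and Scnn1g to Scnn1b from 0.896 to 0.600.

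Slc12a3 (ENSMUSG00000031766.4, chr8:94329201-94366214, plus strand) encodes NCC, the thiazide-sensitive sodium chloride cotransporter of the distal convoluted tubule. It had 16191 counts in CLP kidney, 10452 in CLP + MLT kidney, 454 in CLP heart and 639 in CLP + MLT heart. The kidney levels per kilobase, 59.4 and 61.1, differed by a ratio of 1.03, with a log2 ratio of 0.04 that became -0.15 with library size only.

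Pvalb (ENSMUSG00000005716.16, chr15:78191114-78206400, minus strand) encodes parvalbumin, a calcium-binding protein found in the early distal convoluted tubule of the mouse and also in fast skeletal muscle and some neurons. It had 67 counts in CLP kidney, 157 in CLP + MLT kidney, 0 in CLP heart and 20 in CLP + MLT heart. The kidney ratio was 3.71, the largest of the 9 genes, with a log2 ratio of 1.89 (1.48 to 2.34), and 0.614% of kidney genes had a higher one. Since parvalbumin is also a muscle protein, skeletal muscle markers were examined: the fast myosin genes Myh1, Myh2 and Myh4 had 0 counts in all 4 libraries, and Mylpf, the fast light chain gene, had 52 and 51 counts in the kidneys. Of the 10 muscle markers, 3 could be tested in kidney and 1, Mylpf, was at least 1.5-fold higher, against 11.0% of all kidney genes tested. With library size only, 0 were higher. The summed level of the 10 markers was 6.97 CPM in CLP kidney and 9.68 in CLP + MLT kidney. In heart 6 could be tested, with 1 higher and 4 lower, against 10.9% and 12.6% of all heart genes tested. Of these 6, Tnni2 passed the minimum only through 1 heart library, and of the other 5, 1 was higher and 3 lower. Their summed level was 1093 CPM in CLP heart and 392 in CLP + MLT heart. The part of muscle in the Pvalb values was not tested.

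Trpm6 (ENSMUSG00000024727.9, chr19:18749983-18892511, plus strand) encodes the channel through which the distal convoluted tubule takes up magnesium. It had 285 counts in CLP kidney, 350 in CLP + MLT kidney, 10 in CLP heart and 18 in CLP + MLT heart. The kidney log2 ratio was 0.97 (0.74 to 1.20), with 4.44% of kidney genes higher. Relative to Slc12a3 in the same library, Pvalb went from 0.0442 to 0.160, 3.63-fold, and Trpm6 from 0.0254 to 0.0482, 1.90-fold. The 3 genes of the distal convoluted tubule therefore did not move as 1 group, and the pair with the larger ratios were those with the fewest reads.

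Scnn1a (ENSMUSG00000030340.16, chr6:125320659-125344943, plus strand), Scnn1b (ENSMUSG00000030873.9, chr7:121865038-121918514, plus strand) and Scnn1g (ENSMUSG00000000216.8, chr7:121734479-121768475, plus strand) encode the α, β and γ subunits of ENaC. Scnn1a had 3653 counts in CLP kidney, 2532 in CLP + MLT kidney, 60 in CLP heart and 47 in CLP + MLT heart. Scnn1b had 1070, 930, 9 and 25 counts in the same order, and Scnn1g had 1089, 634, 4 and 14. None of the 3 was past 1.5-fold in kidney. The kidney log2 ratio was 0.14 (0.07 to 0.22) for Scnn1a and -0.05 with library size only, 0.47 (0.34 to 0.60) for Scnn1b, and -0.11 (-0.25 to 0.03) for Scnn1g. Scnn1b and Scnn1g are neighbours on the same strand of chromosome 7, with 96.6 kb between them, and their counts were nearly equal in CLP kidney but not in CLP + MLT kidney. The level of Scnn1g relative to Scnn1b per kilobase went from 0.896 to 0.600, a log2 difference of -0.58 (-0.77 to -0.39). Of the summed level of the subunits, α made up 53.4% in CLP and 52.0% in CLP + MLT, β 24.6% and 30.0%, and γ 22.0% and 18.0%.

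**Figure D3:**
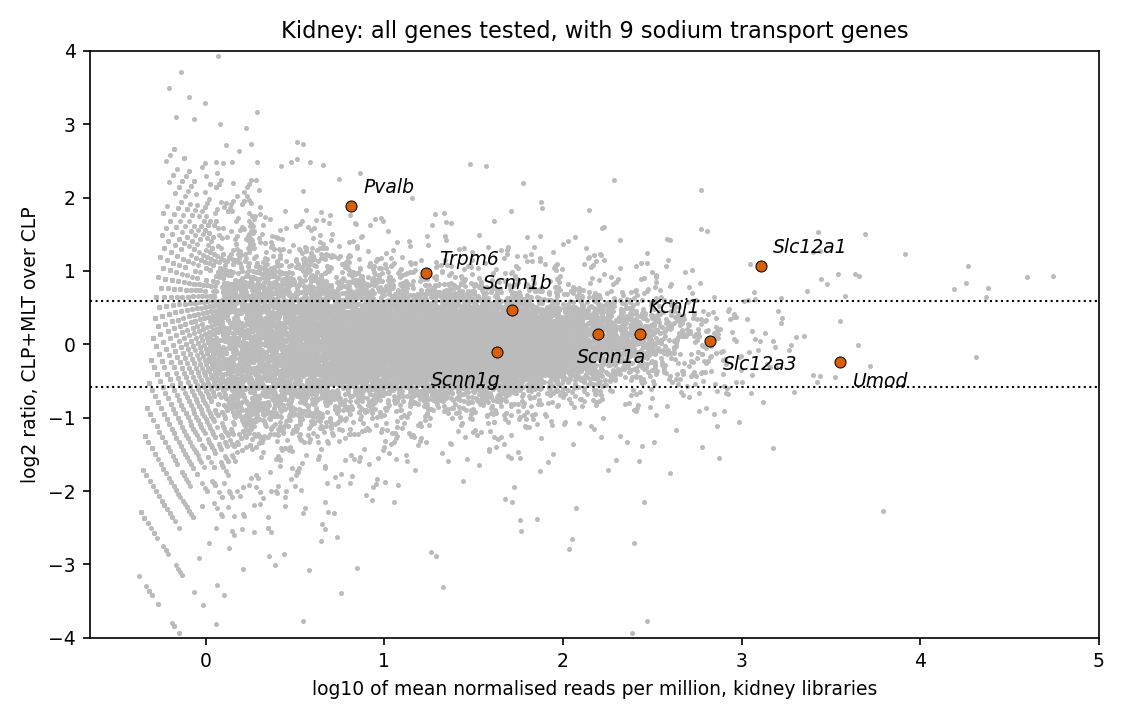
Log2 ratio of CLP + MLT over CLP against mean level for the genes tested in kidney (grey; 16900 drawn and 32 beyond the axis limits), with the 9 sodium transport genes named. Pvalb at 1.89, Slc12a1 at 1.07 and Trpm6 at 0.97 lay above the 1.5-fold line, and Umod at -0.24 was the lowest of the 9.

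In the hearts the same genes were at low levels. Excluding Pvalb, the CLP heart held between 0.553% (Scnn1g) and 5.28% (Trpm6) of the CLP kidney level, with a median of 1.41%, and the CLP + MLT heart held between 0.884% (Umod) and 5.81% (Slc12a3), with a median of 1.93%. Pvalb, listed apart because it had 0 counts in CLP heart, stood at 12.1% of the kidney level in the CLP + MLT heart, the highest of the 9. In heart 8 of the 9 genes could be tested, since Scnn1g fell below a mean of 10 counts, and Slc12a1, Pvalb, Trpm6 and Scnn1b were at least 1.5-fold higher in CLP + MLT. Pvalb and Scnn1b had fewer than 10 counts in CLP heart and passed the minimum only through the CLP + MLT heart, which fixed their direction. Among the other 6 genes 2 were higher, Slc12a1 and Trpm6. None was lower, against 10.9% of the 15871 genes tested in heart that were higher and 12.6% that were lower. Among those 6 the whole interval lay above 1.5-fold for 1, Slc12a1, and below it for 0, against 2.89% and 4.45% of all heart genes.

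Slc12a1 was again higher in the CLP + MLT heart, with a ratio of 3.01 and a log2 ratio of 1.59 (1.31 to 1.88). Umod in heart had a log2 ratio of 0.04 (-0.15 to 0.23), so its 459 and 468 counts differed by less than the counting error. The heart log2 ratios of Kcnj1, 0.33 (-0.16 to 0.82), and Trpm6, 0.83 (-0.33 to 2.14), also had intervals that reached 0. Slc12a3 was higher at 0.50 (0.33 to 0.68), below the 1.5-fold line, and Scnn1b stood at 1.43 (0.34 to 2.77) on 9 and 25 counts. Scnn1a, at -0.34 (-0.93 to 0.23), was the only one of the 8 below 0. Pvalb had 0 counts in CLP heart, for which the floor of 3 counts per library, 0.184 CPM, was used. Its 20 counts in CLP + MLT heart stood at 6.71-fold that floor, or 2.75 on the log2 scale. The counting interval of the ratio began lower, at 2.31 on that scale.

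Some markers of other kidney cells moved with these values in the hearts and others did not. All 6 principal cell markers were at least 1.5-fold higher in the CLP + MLT heart, with a summed level of 14.7 CPM in CLP and 40.6 in CLP + MLT, Aqp2 going from 26 to 143 counts. All 4 intercalated cell markers tested were higher (summed 3.43 and 7.16), and 4 of 7 proximal tubule markers were higher and 1 lower (summed 84.7 and 158). Of these, Aqp3, Fxyd4, Atp6v0d2 and Slc4a1 passed the minimum only through the CLP + MLT heart, and Slc5a12, which was lower, only through the CLP heart. Of 7 other thick limb genes, 1 was higher and 0 lower, with a median log2 ratio of -0.01 (summed 37.0 and 35.8). Of 3 podocyte markers tested in heart, 0 were higher or lower (summed 210.2 and 208). These podocyte markers were not all specific to kidney. In CLP heart their median was 49.8% of the kidney level (0.229% to 96.9%), against 3.71% for principal, 1.35% for intercalated and 2.36% for proximal tubule markers. Among all heart genes tested, 10.9% were higher and 12.6% lower. The part of these kidney markers in the heart values of the 9 genes was not tested. In the kidneys, 4 of 6 principal cell markers were higher and 0 lower (summed 521 and 626). Of 5 intercalated cell markers, 2 were higher, which became 0 with library size only, and 0 lower. Of 7 proximal tubule markers, 2 were higher and 3 lower, with log2 ratios from -3.31 (Slc5a12, 955 and 60 counts) to 2.24. Of 4 podocyte markers, 0 were higher and 2 lower. Among all kidney genes tested, 11.0% were higher and 11.6% lower. The part of these markers in the kidney values was not tested either. Aqp2, the water channel of the principal cell, had a kidney log2 ratio of 0.08.

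**Figure D4:**
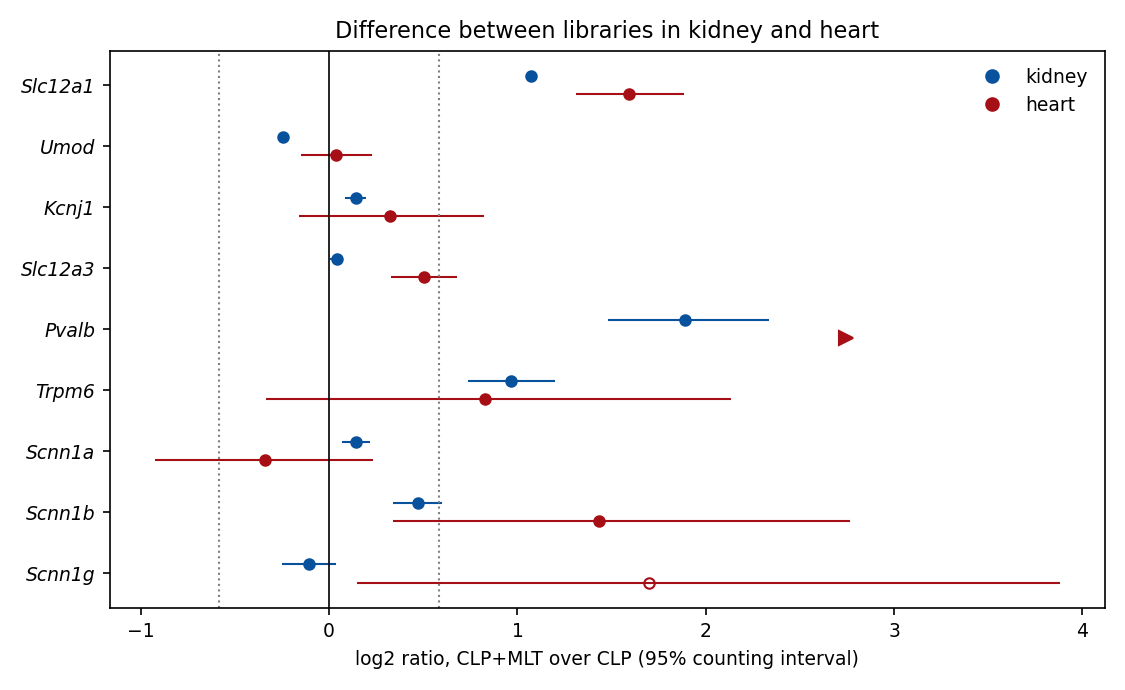
Log2 ratio of CLP + MLT over CLP for the 9 genes in kidney and in heart, with 95% counting intervals as bars and dotted lines at 1.5-fold. The right-pointing triangle is Pvalb in heart, at 2.75, its ratio to a floor of 3 counts in CLP heart. Its counting interval, not drawn, began lower, at 2.31. The open circle is Scnn1g in heart, which was not tested. Slc12a1 lay right of the 1.5-fold line in both tissues, at 1.07 and 1.59, and Umod near 0 in both, at -0.24 and 0.04.

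The genes that surround these 9 in the same pathways were described from 7 lists, which hold 72 genes and share some of them. In kidney 67 of these could be tested and 10 were past 1.5-fold, or 14.9%, 8 higher and 2 lower, while 22.6% of all kidney genes tested were past it. With library size only the split was 4 higher and 8 lower. In heart 60 could be tested and 14 were past it, or 23.3%, 10 higher and 4 lower, close to the 23.5% of all heart genes tested. Among the 14, Fxyd4 (2 counts in CLP and 22 in CLP + MLT) passed the minimum only through the CLP + MLT heart. Slc12a8 (19 and 7 counts) passed it only through the CLP heart. For both, this fixed the direction.

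Among the other thick limb genes, 3 of 12 tested were higher in the CLP + MLT kidney and none lower, with a median log2 ratio of 0.44. Of all kidney genes tested, 11.0% were higher and 11.6% lower. With library size only, 2 of the thick limb genes were higher and 1 lower. Egf, whose product is shed into urine from the thick limb and distal convoluted tubule, had 8648 counts in CLP and 10904 in CLP + MLT, with a log2 ratio of 1.01 (0.97 to 1.05) that was close to that of Slc12a1. Bsnd, which encodes barttin, a protein needed for salt uptake in the thick limb, stood at 0.83 (0.71 to 0.94). Ptger3, a prostaglandin receptor of the thick limb, stood at 0.57 (0.44 to 0.70), just below 1.5-fold. The claudin gene Cldn19, needed for magnesium passage between the cells, had 0.44 (0.32 to 0.56), and Tfap2b, a transcription factor of the distal nephron, had 1371 and 858 counts and a log2 ratio of 0.00. In heart, Egf had a log2 ratio of -0.19 (-0.50 to 0.12) and Bsnd one of 1.68 (0.68 to 2.92) on 10 and 33 counts.

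The magnesium genes had 2 of 11 higher and none lower in kidney, with a median of 0.30. For this list and the next, the shares of all kidney genes tested were 11.0% higher and 11.6% lower. Fxyd2, a sodium pump subunit, stood at 0.36 (0.34 to 0.38), and Trpm7, the partner channel of Trpm6, at 0.03 (-0.04 to 0.10). Egf belongs to this list too. Of the distal convoluted and connecting tubule genes, 1 of 12 was higher, Sall3, named after its values were seen, at 0.74 (0.28 to 1.21) on 79 and 83 counts, and the median was 0.03. With library size only the median was -0.16 and the list had 0 higher and 1 lower. S100g, which encodes another calcium-binding protein, stood at 0.35 (0.32 to 0.38), and Vdr, the vitamin D receptor, at -0.32 (-0.40 to -0.24). Calb1, the calcium-binding protein of these segments, stood at -0.37 (-0.46 to -0.29) and Kcnj10, the basolateral potassium channel, at -0.40 (-0.52 to -0.28), so neither shared the higher level of Pvalb and Trpm6.

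**Figure D5:**
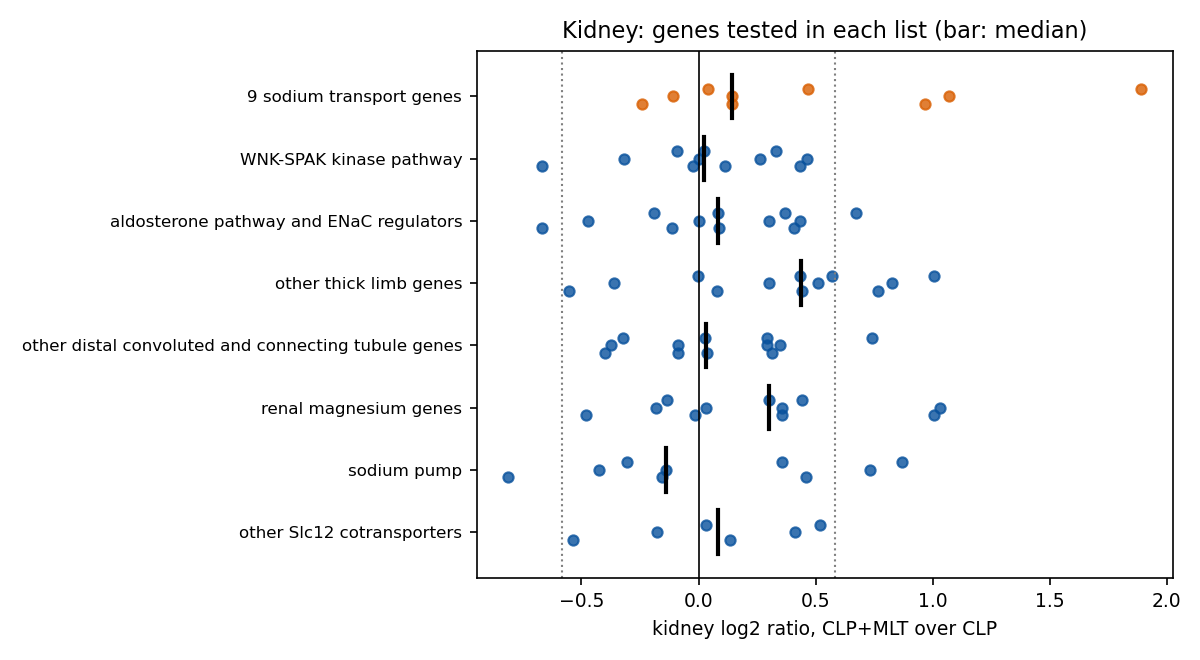
Log2 ratio of CLP + MLT over CLP in kidney for each tested gene of the 9 and of the 7 pathway lists, with the median of each list as a line. The other thick limb genes had the highest median of the 7 lists, 0.44, and the sodium pump the lowest, -0.14.

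The kinases and the hormone pathway that act on these carriers are read against the 22.6% of all kidney genes that were past 1.5-fold in either direction. In the WNK-SPAK pathway, which switches NKCC2 and NCC on by phosphorylation, 0 of 11 genes were higher in kidney and 1 lower, with a median of 0.03 that became -0.17 with library size only. Wnk4 stood at 0.46 (0.40 to 0.52), Wnk1 at 0.00 and Oxsr1 at -0.32 (-0.48 to -0.15). The gene that was lower was Sgk1, a kinase induced by aldosterone and glucocorticoids, with 2642 and 1042 counts and a log2 ratio of -0.67 (-0.78 to -0.57). Among aldosterone and ENaC regulators, 1 of 12 was higher, Nr3c2, the mineralocorticoid receptor, at 0.67 (0.42 to 0.92), and 1 lower, Sgk1 again, with a median of 0.08. With library size only that median became -0.11 and the list had 0 higher and 2 lower, so the call of Nr3c2 was lost. Nedd4l, which removes ENaC from the membrane, stood at 0.43 (0.36 to 0.51), and Furin, which cleaves α and γ ENaC, at -0.47 (-0.57 to -0.38).

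The sodium pump, which drives all of these carriers from the blood side, had 2 of 9 genes higher and 1 lower in kidney, with a median of -0.14. The shares of all kidney genes tested were 11.0% higher and 11.6% lower. Fxyd4, the pump subunit of the collecting duct, was higher at 0.87 (0.73 to 1.00), and Atp1b2 was lower at -0.81 (-1.17 to -0.47). The other cotransporters of the Slc12 family had 0 of 6 past 1.5-fold, with a median of 0.08, or -0.11 with library size only. Slc12a2, the widely expressed relative of Slc12a1 that encodes NKCC1, stood at -0.54 (-0.71 to -0.36) on 900 and 389 counts. Tubular injury markers were lower in the CLP + MLT kidney for 3 of 4 genes, with a summed level of 535 CPM in CLP and 114 in CLP + MLT. Havcr1 went from 1517 to 43 counts. Krt20 passed the minimum only through the CLP kidney, which fixed its direction. Of the other 3 genes, 2 were lower and 0 higher, against 11.6% and 11.0% of all kidney genes tested. The part of the injury markers in the values of the 9 genes was not tested.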

How the data were processed

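Poly-A RNA from 4 libraries, 1 per group, was sequenced by the authors. The submitters' processing notes name HISAT2 2.1.0, HTSeq and mm10; for HTSeq, version, annotation and strand setting: not given in the sources used here. The deposited values are raw counts of reads per gene, without normalization. The 5 HTSeq totals were left out (reads on no gene made up 29.6% to 37.7% of a file). Identifiers, without version, matched GENCODE M21 (GRCm38) for 55141 of 55401 rows.

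TMM factors (edgeR 4.0.16, R 4.3.3) were computed per tissue over genes averaging 10 counts or more. Python 3.11.15 gave the remaining values, with pandas 2.3.3, numpy 2.4.6 scipy 1.17.1 and matplotlib 3.10.9. Log2 ratios used a prior count of 0.5, Clopper-Pearson intervals and a floor of 3 counts per library. The members and lists were chosen with earlier results of these data known. The named genes were the 9 members and, per pathway list, up to 4 with the largest kidney change among genes averaging 100 counts or more; any other gene was added with its values in view. Alternatives were other scalings (library size, DESeq2 1.42.0 size factors, upper quartile, without mitochondrial and haemoglobin genes), filters, a prior count of 5, a 2-fold threshold, intervals, and edgeR's exact test at assumed variation. The code was tested on simulated data. The values of some genes of the lists, and of 1 motif, are not reported here.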

Additional observations from a re-analysis of the deposited data

Results flagged for a closer look

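The 9 genes, the other genes named by the rule and every gene of the 7 pathway lists were examined for opposite differences in kidney and heart. Of 82 such genes tested in both tissues, 7 had counting intervals on opposite sides of 0, and 4 of these kept that under every scaling tried. The share of all genes with such intervals is not given here. The count of 7 is therefore not read as high or low. All values are log2 ratios of CLP + MLT over CLP. Each tissue had 1 library per group, and the difference between the tissues was not tested.

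The 4 were the following, chosen after their values were seen. Fxyd1 stood at 0.73 (0.23 to 1.25) in kidney and -0.53 (-0.62 to -0.45) in heart. Kcnj16 stood at -0.088 (-0.14 to -0.04) in kidney and 0.84 (0.42 to 1.28) in heart. Klk1 stood at 0.32 (0.30 to 0.33) in kidney and -0.31 (-0.45 to -0.16) in heart. Atp1b1 stood at -0.30 (-0.33 to -0.28) in kidney and 0.29 (0.15 to 0.42) in heart.

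The other 3 depended on the scaling. Stk39 stood at 0.26 (0.12 to 0.40) in kidney and -0.60 (-0.82 to -0.38) in heart, and its kidney interval reached 0 with library size only. Sgk1 stood at -0.67 (-0.78 to -0.57) in kidney and 0.07 (0.0018 to 0.15) in heart, and with DESeq2 size factors its heart interval reached 0. Slc12a4 stood at -0.18 (-0.35 to -0.0026) in kidney and 0.38 (0.28 to 0.48) in heart, and with the upper quartile its kidney interval reached 0.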

How the results depend on the processing

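No paired analysis was possible because each group had 1 library. With library size only, the median of all kidney genes moved to -0.19, the median of the 9 genes to -0.052, and their summed level in CLP kidney from 5863 CPM to 6274. That summed level was 5818 with the upper quartile and 7298 without mitochondrial and haemoglobin genes. At 2-fold, the 3 kidney genes past 1.5-fold became 2. The 3 kidney genes past 1.5-fold became 0 with edgeR's exact test at an assumed variation of 0.4. The 10 pathway genes past it in kidney became 2 at 2-fold, 5 where the whole interval had to be past 1.5-fold, and 0 at a variation of 0.2 or 0.4. The 3834 of all kidney genes became 10695 with no filter, 2014 at a mean of 50 counts, 1529 at 2-fold, 1180 by interval, 619 at a variation of 0.2 and 90 at 0.4. In heart, the 4 genes became 1 at a mean of 50 counts, 2 by interval, 2 at 0.2 and 1 at 0.4; the 14 pathway genes became 9, 6 at 2-fold, 6 by interval, 2 and 0; and the 3723 of all genes became 10461 with no filter, 1870, 1559, 1166, 662 and 63. Of the 4 heart genes, Pvalb and Scnn1b passed the minimum only through the CLP + MLT heart, which fixed their direction. Pvalb is 1 of the 2 by interval, and among the 6 other genes tested 1 was past by interval. Of the 14 pathway genes, Fxyd4 passed the minimum only through that heart and Slc12a8 only through the CLP heart. Beyond these settings' own stricter or looser construction, the cause was not tested. Adding the Gm44588 reads to Umod, chosen after seeing the data, gave -0.16. Depth limits Pvalb, Trpm6 and the heart values most.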

Other observations

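The genes whose profile over the 4 libraries was nearest to the mean profile of the 9 genes were sought among 11759 genes, by Euclidean distance of log2 levels centred on each gene. They were Gm45875 (distance 0.0461), Xylb (0.0779), Pcbd1 (0.0876), Slc16a5 (0.134) and Dlec1 (0.140). Xylb encodes a xylulose kinase. Pcbd1 had 3054 counts in CLP kidney, 2452 in CLP + MLT kidney, 47 in CLP heart and 77 in CLP + MLT heart. Gm45875 rests on 1 and 7 counts in the hearts. The 9 genes themselves lay between 0.205 (Scnn1b) and 2.68 (Pvalb) from their own mean profile. The 5 genes were picked as the nearest of 11759, so their smaller distances say nothing about the 9. The distances are over 4 libraries of 2 tissues and describe them only.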
